A study of Homo sapiens with 4 samples.

Results

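The 10 genes described here carry out or control the making of fatty acids in the cell: SREBF1, ACLY, ACACA, FASN, ELOVL6, ELOVL5, SCD, FADS1, FADS2 and ACSL3. They were taken by gene symbol from the 33538 genes counted in each of 4 single-cell RNA sequencing (scRNA-seq) libraries, and all 10 were detected in all 4. SCD was chosen by its fall after APC knockdown in these same libraries, so its own ratio is a description. The question was whether the other lipogenic genes shared that fall.

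HCEC 1CT is a human colonic epithelial cell line immortalised with TERT and CDK4, and the labels call it a progenitor. It received either an shRNA that targets APC (shAPC) or one of scrambled sequence as control (shScr), was kept in puromycin in a serum-poor medium with EGF, hydrocortisone, insulin, selenite and transferrin, and was harvested 3 or 7 days later. This gave 1 library for each shRNA and day, so that no difference has a replicate check, and 1 shRNA sequence stands for the knockdown. The labels describe the virus as retroviral and the kit as version 2 of the 10x Genomics 3′ chemistry, whereas the methods give a lentiviral vector and V3. The software that counted the shScr libraries was Cell Ranger 3.0.2 and that for shAPC was 3.0.0, so the counting version and the shRNA cannot be told apart.

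Barcodes with at least 200 genes, at least 500 UMIs (unique molecular identifiers, 1 per captured mRNA molecule) and under 5% mitochondrial UMIs were kept as cells. This left 5982 cells, 788 to 2600 a library, with 28451455 to 39797418 UMIs a library. Median depth ranged from 1330 UMIs per cell in shScr day 7 to 49685.5 in shAPC day 3, yet cells of at least 10000 UMIs held 92.4% to 98.3% of all UMIs, and 35 barcodes occurred in more than 1 library. UMIs were summed over the kept cells and divided by their total to give CPM (counts per 1000000 UMIs). APC, the targeted tumour suppressor, stood at 16.1 CPM in shScr day 3, 5.52 in shAPC day 3, 19.1 in shScr day 7 and 6.61 in shAPC day 7, a log2 ratio of -1.54 at day 3 and -1.53 at day 7. Among 10 epithelial markers, CDH1 and EPCAM had at most 2 UMIs in any library, whereas TJP1 had over 20 CPM in every library and up to 51.5 CPM, KRT8 had 9.57 to 19.4 CPM and CLDN7 6.26 to 16.9 CPM. TJP1 alone of the 10 reached 20 CPM, against 7 of 8 mesenchymal markers, so the epithelial markers were present in part. Adipocyte markers, which would mark the cell type best known for lipogenesis, summed to 0.281 to 1.23 CPM.

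Fatty acid synthesis starts from citrate, which ATP citrate lyase (ACLY) splits to acetyl-CoA. Acetyl-CoA carboxylase 1 (ACACA) turns acetyl-CoA into malonyl-CoA, and fatty acid synthase (FASN) builds palmitate from both. ELOVL6 lengthens palmitate to stearate, and stearoyl-CoA desaturase (SCD) puts the first double bond into these saturated chains, giving the palmitoleate and oleate of membrane and storage lipids. FADS1 and FADS2 add double bonds to polyunsaturated chains, ELOVL5 lengthens those chains, and ACSL3 joins fatty acids to coenzyme A at the endoplasmic reticulum and lipid droplets. SREBF1 encodes SREBP-1, a transcription factor that is held in the endoplasmic reticulum until it is cleaved and then switches on genes of this pathway. Dividing cells draw on the pathway for the lipids of new membranes.

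SCD lies on chromosome 10 at 100347233 to 100364826 on the plus strand (hg38, GENCODE 44). The 250 bases before its start in RefSeq (GRCh38.p14), chr10:100346983-100347232, are shown because SCD is the gene on which the comparison turns, with each CCAAT box, the letters bound by the NF-Y factor that often works beside SREBP, in capitals. Stretches of 25 bases around a CCAAT match of 4 other genes follow for comparison: ELOVL5 and ACSL3, the lowest after SCD at day 3 and at day 7 below, and ACLY and FADS2.
SCD: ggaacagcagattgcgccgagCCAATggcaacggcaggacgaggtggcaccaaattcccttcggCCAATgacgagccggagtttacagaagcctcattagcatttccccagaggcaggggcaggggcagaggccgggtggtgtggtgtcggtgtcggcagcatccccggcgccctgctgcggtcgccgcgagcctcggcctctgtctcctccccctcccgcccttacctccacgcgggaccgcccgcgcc
ELOVL5: ttgtcccgcgATTGGctcccgggcc
ACSL3: cgctcgcgggCCAATgggtggcagc
ACLY: acgcgtgtggCCAATcgcggggccg
FADS2: cgcaggacacCCAATcaccgggcaa

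The stretches lie on GRCh38.p14 at chr6:53349058-53349082 for ELOVL5 (minus strand), chr2:222860951-222860975 for ACSL3 (plus), chr17:41919031-41919055 for ACLY (minus) and chr11:61816399-61816423 for FADS2 (plus). ATTGG is CCAAT read from the other strand. In the SCD sequence the CCAAT boxes span positions -229 to -225 and -186 to -182 from the start of transcription. Both strands of the windows from 250 bases before to 50 after the start were searched, with 13 RefSeq entries for 9 of the 10 genes; FASN had no entry. CCAAT occurred in 8 of the 13 entries (of ACACA, ACLY, ACSL3, ELOVL5, FADS2 and SCD) and in 34.6% of all 35116 promoters in the table. A GC box (GGGCGG) occurred in 10 of the 13 and in 45.0% of all, and SCD held it at -33 to -28 and -11 to -6, apart from its CCAAT boxes. The E-box CACGTG was found in ELOVL5 and in 7.26% of all promoters. The SRE core TCACNCCAC (1.13% of all) and the TCF/LEF core CTTTGAT (2.62%) were in none of the 13 windows. These are matches of letters, not sites of binding, and CCAAT was present in genes whose ratios differed.

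SCD had 46.2 CPM in shScr day 3, 18.0 in shAPC day 3, 38.0 in shScr day 7 and 13.9 in shAPC day 7, from 1838, 628, 1186 and 396 UMIs. Both shScr libraries therefore stood above both shAPC libraries, and the exact 95% Poisson intervals of neighbours in this order (44.1 to 48.3, 35.8 to 40.2, 16.6 to 19.4 and 12.6 to 15.4 CPM) did not overlap. Between shAPC and shScr the log2 ratio was -1.36 at day 3 (exact conditional binomial 95% interval -1.49 to -1.23) and -1.45 at day 7 (-1.62 to -1.28). In linear terms SCD was at 0.389 and 0.367 of its control. These and all further intervals cover counting error only, not the spread between cultures.

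**Figure D1:**
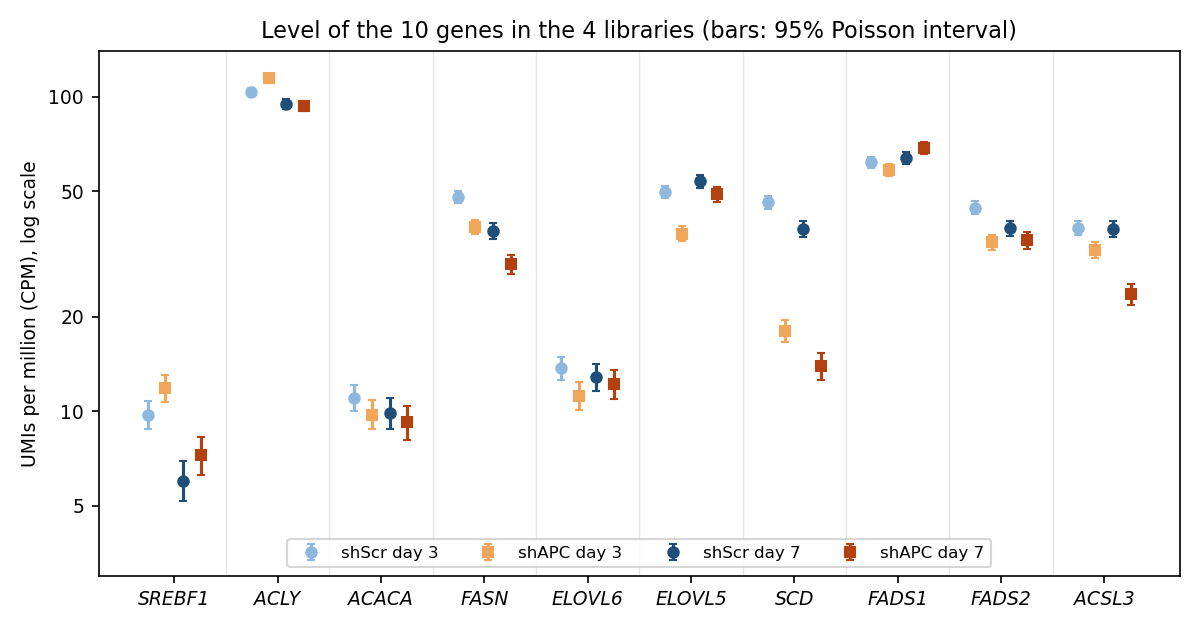
Level of the 10 genes (CPM, log axis) in the 4 libraries, with circles for shScr, squares for shAPC, and bars for the exact 95% Poisson interval of counting error. SCD is the gene whose shAPC libraries stand far below both shScr libraries (18.0 and 13.9 against 46.2 and 38.0 CPM), while ACLY stays between 93.3 and 114 CPM.

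SREBF1, the regulator, had 9.75 CPM in shScr day 3, 11.8 in shAPC day 3, 6.02 in shScr day 7 and 7.24 in shAPC day 7. Its log2 ratios of shAPC to shScr were 0.28 (0.07 to 0.48) at day 3 and 0.27 (-0.03 to 0.56) at day 7, so neither value was below 0 while SCD was. These are levels of mRNA, and cleavage of the SREBP-1 protein was not measured.

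ACLY, the first enzyme, had 104 and 114 CPM in shScr and shAPC at day 3, then 94.7 and 93.3 CPM at day 7. At day 3 its log2 ratio was 0.14 (0.08 to 0.20), and at day 7 -0.02 (-0.10 to 0.05). ACACA had 11.0, 9.76, 9.86 and 9.21 CPM in the same order, and the intervals of its ratios, -0.17 at day 3 and -0.10 at day 7, both included 0. FASN, the synthase itself, had 48.0, 38.5, 37.4 and 29.3 CPM. Its ratio at day 3 was -0.32 (-0.42 to -0.22) and that at day 7 -0.35 (-0.48 to -0.22), so that the FASN level in shAPC day 3 was close to that of shScr day 7.

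The elongase ELOVL6, whose product is a substrate of SCD, had 13.7, 11.2, 12.8 and 12.2 CPM in that order of libraries, with ratios of -0.29 (-0.48 to -0.10) and -0.07 (-0.29 to 0.14). ELOVL5 had 49.9, 36.6, 53.8 and 48.9 CPM, and its ratio was -0.45 (-0.55 to -0.34) at day 3 but -0.14 (-0.24 to -0.03) at day 7. The shAPC day 3 library was thus the low one for ELOVL5, and the other 3 were close together.

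Of the other desaturases, FADS1 had 61.9, 58.3, 63.8 and 68.9 CPM and FADS2 had 44.4, 34.4, 38.1 and 34.9 CPM. For FADS1 the day 3 ratio was -0.08 (-0.17 to 0.00) and the day 7 ratio 0.11 (0.02 to 0.20), and that of FADS2 was -0.37 (-0.47 to -0.26) and -0.13 (-0.25 to 0.00). FADS1 and FADS2 overlap on opposite strands of chromosome 11, and the strand setting of the counting was not given in the sources used here, so reads of the pair may not be fully separated. ACSL3, the acyl-CoA synthetase, had 38.2, 32.5, 37.9 and 23.5 CPM, with a ratio of -0.23 (-0.35 to -0.12) at day 3 and -0.69 (-0.83 to -0.55) at day 7. The low library for ACSL3 was shAPC day 7. Besides SCD, ACSL3 at that day was the 1 gene past 1.5-fold in CPM without centring. With TMM factors and no centring, ELOVL5 (-0.83), FADS2 (-0.75), FASN (-0.70), ELOVL6 (-0.67) and ACSL3 (-0.61) were past it at day 3 too. The median of all genes was itself -0.13 with these factors, and the share of all genes past 1.5-fold was not counted there. Relative to that median, ELOVL5 (-0.68) and FADS2 (-0.60) stayed past 1.5-fold, and FASN (-0.55), ELOVL6 (-0.49) and ACSL3 (-0.47) did not.

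SCD was set against the sum of the other 9 genes, which needs no scaling between libraries. SCD made up 10.8% of the 10 genes' UMIs in shScr day 3, 4.92% in shAPC day 3, 9.68% in shScr day 7 and 4.08% in shAPC day 7. The other 9 genes together had 381, 348, 355 and 328 CPM in that order, a log2 ratio of -0.13 at day 3 and -0.11 at day 7. Relative to them SCD was lower by a log2 ratio of -1.23 (-1.36 to -1.10) at day 3 and -1.33 (-1.50 to -1.17) at day 7. Most of the SCD difference was thus not shared by the other 9 as a sum, though SCD was picked for its fall. ACLY is the largest part of that sum, which can hide falls of less abundant genes. Relative to the median of all genes, used below, the sum of the 9 stood at -0.41 at day 3 and -0.02 at day 7.

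To place the genes among all others, each log2 ratio of CPM + 1 was taken relative to the median of all genes with 20 CPM or more in either library, since that median was itself 0.28 at day 3 (5175 genes) and -0.10 at day 7 (4573 genes). A gene at least 1.5-fold from the median, 0.58 on the log2 scale, was counted as lower or higher. Of the 10 genes 7 passed the limit of 20 CPM, SCD through shScr alone, and ACACA, ELOVL6 and SREBF1 did not. SCD was chosen by this difference, so that nothing is read from its own place in a count. At day 3, FASN, ELOVL5 and FADS2 were lower besides SCD, 3 of the other 6, where 4.99% of all genes were, and none was higher, where 5.93% of all were. With SCD the count was 4 of 7. Their relative log2 ratios were -1.59 for SCD, -0.71 for ELOVL5, -0.63 for FADS2 and -0.586 for FASN, which lies just inside the limit. ACSL3 (-0.50), FADS1 (-0.36) and ACLY (-0.14) were outside it. The median of the 6 without SCD was -0.54, against 0 by construction for all genes.

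At day 7 none of the 6 besides SCD was lower, where 5.20% of all genes were, and none was higher, where 4.07% were. SCD stood at -1.29, ACSL3 at -0.571 just outside the limit, FASN at -0.25, ELOVL5 at -0.04, FADS2 at -0.03, ACLY at 0.07 and FADS1 at 0.20. The median of the 6 was -0.03. None of the 6 was lower at both days, where 2.27% of 4448 genes were, and none was higher at both, where 0.719% were. The direction of ACLY and SREBF1 at day 3 depends on the centring: 0.14 and 0.28 before it, -0.14 and -0.02 after it.

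**Figure D2:**
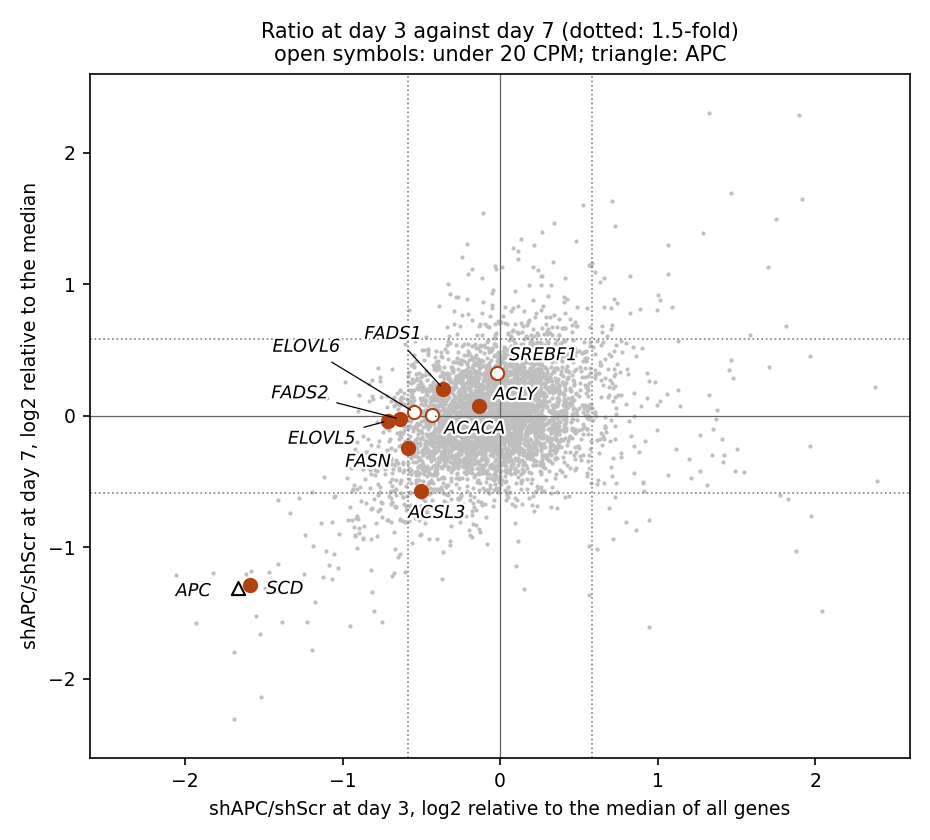
Log2 ratio of shAPC to shScr relative to the median of all genes, at day 3 (x axis) and day 7 (y axis), for 4448 genes (grey; 2 lie outside the axes), the 10 genes (circles, open when under 20 CPM) and APC (triangle); dotted lines mark 1.5-fold. SCD sits at -1.59 and -1.29, beside the targeted gene APC, while the other 9 genes lie between -0.71 and -0.02 at day 3 and between -0.57 and 0.33 at day 7.

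The day 3 count moved with the cells and the centring used. In shAPC day 3, 5 of 5 stress markers and 8 of 8 interferon markers were counted as higher, where 5.93% of all genes were. Their sums in shAPC and shScr were 355 against 58.3 CPM for stress and 3536 against 655 CPM for interferon. All 5 stress markers reached 20 CPM through shAPC alone, which favours a call as higher. MX1 and OAS1 of the interferon list, named for this, did so too. A UMI of ATF3, a transcription factor induced by stress, was found in 130 of 788 shAPC cells, against 35 of 1116 in shScr. Without the cells that had an ATF3 UMI the relative ratios became -1.39 for SCD, -0.55 for ELOVL5, -0.45 for FADS2 and -0.39 for FASN. SCD alone was then counted as lower. This filter also took out deep cells, since shAPC day 3 cells of at least 10000 UMIs went from 576 to 458. Without the 5% deepest cells ELOVL5 stood at -0.65, FADS2 at -0.52 and FASN at -0.46. The parts of stress and depth in these shifts were not tested. Leaving out cells whose barcode occurred in another library took FASN out of the day 3 count, as other settings did, and gave SCD log2 ratios of -1.34 and -1.46 before centring. Without taking the ratios relative to the median the count was also 1. At day 7, 1 of 5 stress markers reached 20 CPM (DDIT3, 48.3 CPM in shScr and 34.0 in shAPC) and was not counted as higher. Under that limit, TRIB3 (13.4 and 17.8 CPM) and ASNS (12.9 and 16.6 CPM) were above shScr in shAPC. ATF3 (15.4 and 3.37 CPM) and CHAC1 (11.9 and 10.1 CPM) were below it. The 5 stress markers summed to 102 CPM in shScr and 81.7 in shAPC at that day. Of the interferon markers, 5 of 5 of at least 20 CPM were lower in shAPC at day 7, where 5.20% of all genes were. The list of 8 summed to 328 CPM in shAPC against 813 in shScr. IFIT1 (32.5 CPM in shScr and 17.5 in shAPC) and IFIT3 (30.8 and 18.2 CPM) reached 20 CPM through shScr alone, which favours a call as lower. Without ATF3 cells SCD stood at -1.31 at that day. Of the 7 mesenchymal markers that reached 20 CPM, SPARC was lower at day 3, and COL1A1, COL1A2 and COL3A1 were higher at day 7, with sums over the list of 11822 and 11100 CPM in shScr and shAPC at day 3 and 9264 and 10053 CPM at day 7. The part of the stress, interferon and mesenchymal markers in the results of SCD and the other genes was not tested.

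Within one shRNA, 7 days were compared with 3. In shScr, SREBF1 had a relative log2 ratio of -0.67 but is under 20 CPM, and none of the 7 genes over that limit was lower or higher, where 4.52% and 2.35% of all genes were. SCD stood at -0.33 and FASN at -0.40. In shAPC, where SCD too is under 20 CPM, none of the other 6 was lower, where 7.57% of all genes were, and ELOVL5 was higher at 0.74, where 6.67% were, with FADS1 just outside at 0.571. The median of all genes in that comparison was -0.34, and the ELOVL5 ratio before centring was 0.42 (0.31 to 0.53), from 36.6 to 48.9 CPM. SCD without centring was at -0.28 (-0.39 to -0.18) in shScr and -0.37 (-0.55 to -0.18) in shAPC. These contrasts use the same 4 libraries as those between shRNAs.

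The SCD difference was also looked for cell by cell. A UMI of SCD was found in 54.7% of cells in shScr day 3, 41.9% in shAPC day 3, 22.8% in shScr day 7 and 18.3% in shAPC day 7, but these shares follow depth. After thinning each cell to 2000 UMIs, which left out 217, 115, 1402 and 391 cells in that order, the shares were 8.12% (exact binomial 95% interval 6.42 to 10.1), 3.57% (2.30 to 5.26), 5.51% (4.29 to 6.96) and 2.21% (1.42 to 3.27). In cells of at least 10000 UMIs thinned to 10000 they were 35.0%, 16.3%, 27.4% and 13.8%. With 1 cell line there is no cell type that lacks SCD to give a background. The same share for ACSL3 at 10000 UMIs was 34.2%, 28.0%, 30.1% and 17.9%, and for ACLY 62.5%, 64.2%, 59.8% and 59.1%.

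Cells with several SCD molecules were fewer in shAPC. In cells of at least 20000 UMIs, thinned to 20000, the mean was 0.94 SCD UMIs per cell in shScr day 3, 0.36 in shAPC day 3, 0.79 in shScr day 7 and 0.30 in shAPC day 7. Cells with 2 or more made up 23.2%, 5.42%, 20.2% and 5.38% of them. The variance over the mean was 1.5, 1.12, 1.54 and 1.32, where 1 is what counting alone gives.

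By depth, SCD stood at 47.2, 18.3, 38.6 and 14.0 CPM in cells of at least 30000 UMIs and at 39.0, 11.4, 39.1 and 14.5 CPM in cells of 10000 to 30000, again with the day 3 pair first. In cells assigned to G1 by their cell cycle genes SCD had 46.7, 17.4, 42.7 and 14.7 CPM. shAPC was below shScr at both days in each of these subsets.

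Cells with more SCD held more of the other 9 genes. At 20000 UMIs per cell, the other 9 genes together had 7.04 UMIs per cell where SCD was at 0, 7.81 where it was at 1 and 9.51 where it was at 2 or more in shScr day 3. The corresponding means were 6.94, 7.59 and 9.33 in shAPC day 3, 6.64, 7.55 and 9.39 in shScr day 7, and 6.50, 8.15 and 9.48 in shAPC day 7. Cells with 2 or more SCD UMIs were thus higher by 34.5% to 45.8%, in all 4 libraries. For the 21 genes of cholesterol synthesis and uptake they were higher by 27.2% to 42.3%, and for 26 other genes of fatty acid synthesis by 9.52% to 13.1%. For glycerolipid synthesis and lipid droplets they were higher by 1.22% to 14.0%. For 16 genes of fatty acid oxidation the difference ran from -8.27% to 9.61%. No list outside lipid metabolism was compared in this way. Only 30 cells of shAPC day 3 and 42 of shAPC day 7 had 2 or more SCD UMIs, and cells of a library are not replicates.

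**Figure D3:**
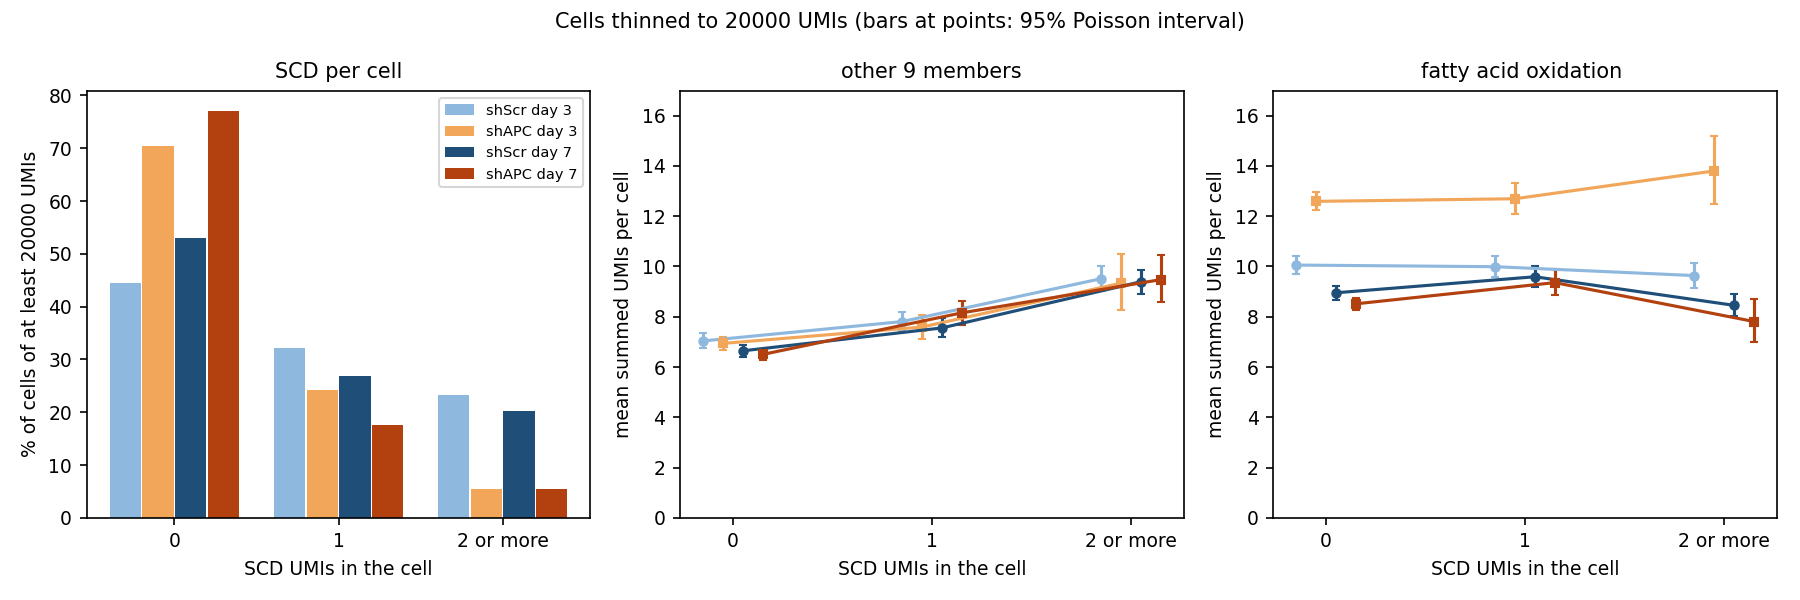
Cells of at least 20000 UMIs, thinned to 20000. Left, the percent of cells with 0, 1, or 2 or more SCD UMIs in each library; middle and right, the mean summed UMIs per cell (95% Poisson interval, counting error) of the other 9 genes and of 16 fatty acid oxidation genes in those cells, where the middle lines climb from 6.50 to 7.04 at 0 up to 9.33 to 9.51 at 2 or more SCD UMIs and the right ones do not climb in all 4 libraries.

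Gene by gene, the Pearson correlations with SCD across these cells, thinned to 20000 UMIs, ran from -0.03 to 0.26 for the other 9 genes. FADS2 had 0.20 in shScr day 3, 0.15 in shAPC day 3, 0.26 in shScr day 7 and 0.14 in shAPC day 7. Among 1599 genes of at least 50 CPM in every library, those outside the list had medians of -0.02 to 0.01. PLOD2, a gene outside the lipid lists named after its values were seen, had 0.15, 0.09, 0.23 and 0.12 in that order. Correlations of this size were thus not particular to lipid genes. In cells thinned to 10000 UMIs the range was -0.07 to 0.17. The points of each value are cells of 1 library with sparse counts, so these weak correlations are given as a description.

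Over the 4 libraries, the genes nearest to SCD in profile among 5300 compared were CXCL5, CAP1, MAP2K1, KCTD20 and DBI, by the distance of mean-centred log2(CPM + 1), at 0.17 to 0.30. CXCL5, a chemokine, had 83.3, 36.0, 75.6 and 30.5 CPM in the order used above. DBI, the acyl-CoA-binding protein, had 226, 115, 229 and 92.6 CPM. The nearest of the other 9 genes was ACSL3 at rank 158 with a distance of 0.92, then FASN at rank 252 and FADS2 at rank 454. SREBF1 was the farthest of the 9. It is not among the genes compared, which reach 20 CPM in at least 1 library, and its distance would take rank 3688. A profile of 4 points made for its likeness to SCD has the shAPC difference built in.

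The wider lipid pathways were counted the same way, against the percentages of all genes given above. Of 26 other genes of fatty acid synthesis, elongation and activation, 13 reached 20 CPM at day 3 and 12 at day 7, and none was lower or higher at either day, with medians of -0.07 and 0.04. CYB5R3, which passes electrons on to desaturases, stood at -0.07 and 0.28, SLC25A1, the citrate carrier of mitochondria, at -0.32 and -0.02, and ELOVL1, an elongase of very long chains, at 0.35 and 0.29. Of the SREBP control list, 8 of 16 reached the limit. INSIG1, which holds SREBP in the endoplasmic reticulum, was higher at day 3 (1.13), from 16.9 to 46.4 CPM, and stood at 0.57 at day 7, from 16.0 to 22.6 CPM. INSIG1 reached 20 CPM through shAPC alone, which favours a call as higher. It is named after its values were seen, and no other gene of that list was counted.

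In cholesterol synthesis and uptake, 8 of 21 genes reached 20 CPM, and 2 were lower at each day and none higher, with medians of -0.37 and -0.36. MSMO1, a sterol methyl oxidase, was lower at both days (-0.69 and -0.81), from 24.1 to 17.8 CPM at day 3 and from 30.0 to 15.6 at day 7, and it reached 20 CPM through shScr alone, which favours a call as lower. The other was SQLE at day 3 (-0.84), squalene epoxidase, and FDPS at day 7 (-0.75), farnesyl diphosphate synthase, which had stood at -0.18 at day 3. FDFT1, squalene synthase, stood at -0.26 and -0.48. The 21 genes summed to 456 and 437 CPM in shScr and shAPC at day 3, and to 487 and 341 CPM at day 7.

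Among 16 genes of glycerolipid synthesis and lipid droplets 10 reached the limit. G0S2, an inhibitor of the lipase that breaks down stored triglyceride, was lower at both days (-0.95 and -1.60), from 92.5 to 57.5 CPM and from 83.4 to 25.1 CPM. PLIN2, a coat protein of lipid droplets, was higher at day 3 (0.67) and stood at -0.09 at day 7, and MGLL, which cleaves monoglycerides, stood at -0.50 and was lower at day 7 (-0.90). HILPDA, another inhibitor of that lipase, was higher at day 7 (0.67), from 14.4 to 22.0 CPM and so over the limit through shAPC alone. PLIN3 stood at -0.25 and 0.04. Medians of the 10 were -0.23 and 0.03.

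None of 8 genes of fatty acid oxidation that reached 20 CPM, of 16 listed, was lower or higher at either day, with medians of 0.09 and -0.06. ACADVL, ETFB and ECHS1 stood at 0.03, 0.24 and 0.09 at day 3 and at -0.18, 0.08 and -0.15 at day 7. Of 12 genes of fatty acid uptake and binding, FABP5 alone reached the limit, at -0.11 and, as lower, -0.67.

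**Figure D4:**
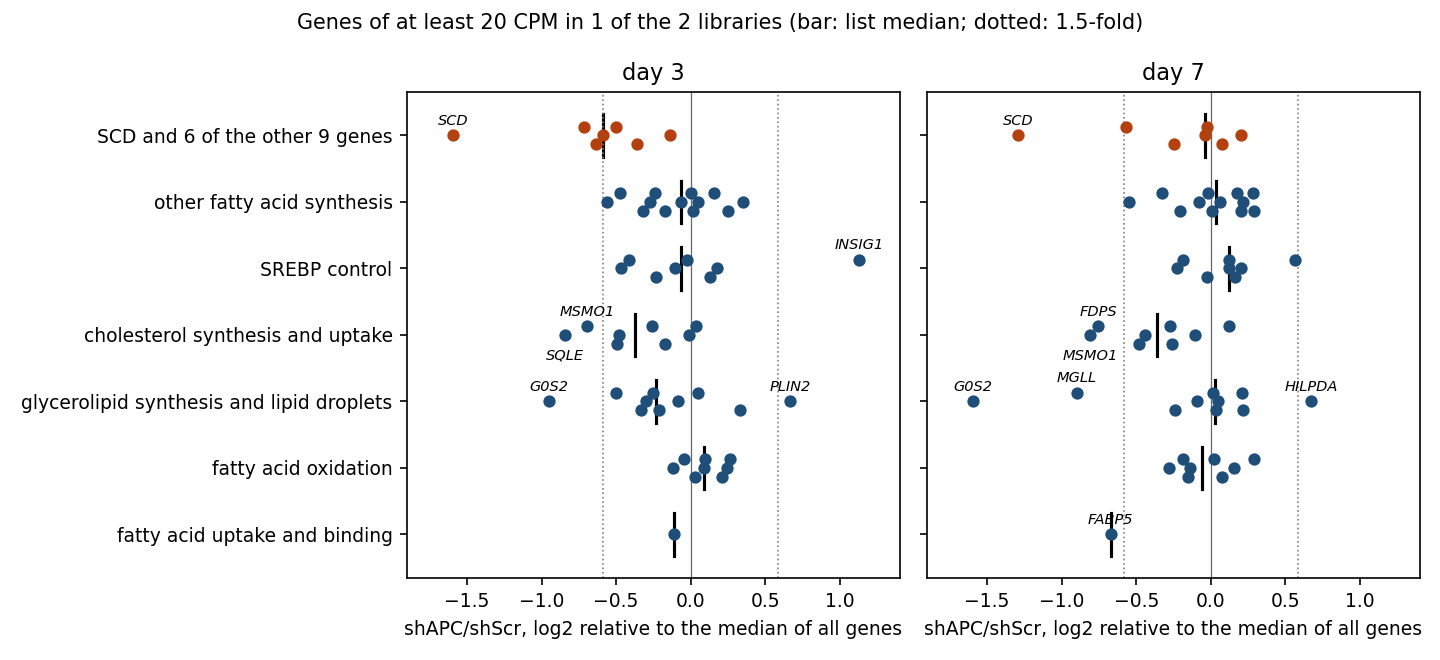
Log2 ratio of shAPC to shScr relative to the median of all genes for genes that reached 20 CPM in either library, by list, at day 3 (left) and day 7 (right); black bars are list medians, dotted lines mark 1.5-fold, and genes past it outside the top row are named. SCD lies at -1.59 and -1.29, G0S2 at -0.95 and -1.60, and fatty acid oxidation genes lie between -0.12 and 0.26 at day 3.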

How the data were processed

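RNA was measured by 3′ scRNA-seq in 4 libraries of HCEC 1CT cells. Per the labels and the file headers, the authors aligned reads with Cell Ranger (STAR) to GRCh38 and deposited a raw UMI count per gene and barcode, over barcodes called as cells, with no scaling. The file headers name Cell Ranger 3.0.2 for shScr and 3.0.0 for shAPC. The annotation release and the strand setting are not given in the sources used here, and the authors' later TMM scaling, ComBat and imputation are not in these counts.

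From the counts, barcodes were kept that had 200 genes and 500 UMIs or more and less than 5% mitochondrial UMIs. No doublets were removed. UMIs were summed per library. CPM have exact Poisson, ratios exact conditional binomial (Clopper-Pearson) and shares exact binomial (Clopper-Pearson) 95% intervals, for counting error only. With 1 library per group no test between groups was made. Relative ratios use a pseudocount of 1 CPM and genes that reach 20 CPM in either library, and calls need 1.5-fold. Plain ratios have no pseudocount. Thinning drew UMIs without replacement with a fixed seed.

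Named are the 10 genes, APC, and of each other list the 3 highest by mean CPM and those past 1.5-fold in 1 direction at both days. Where 5 genes or fewer of a list were counted as lower or higher, they were named too, after their values were seen. Some results that this rule would name are not reported here. The members and lists were chosen with earlier results of these data known. Promoters were from RefSeq (GRCh38.p14) and coordinates from GENCODE 44. Python 3.11.15, scipy 1.17.1, pandas 2.3.3, scanpy 1.11.5 (cell cycle phase), edgeR 4.0.16 (TMM factors) and DESeq2 1.42.0 (size factors) were used, the latter pair for scaling alternatives only. The steps were checked on simulated counts.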

Additional observations from a re-analysis of the deposited data

Results flagged for a closer look

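FADS1, the desaturase that makes arachidonate, had a log2 ratio of shAPC to shScr relative to all genes of -0.36 at day 3 and 0.20 at day 7, so the 2 days lay on opposite sides of the median of all genes. The ratios before centring were -0.08 and 0.11. The difference between the days was 0.57 (0.44 to 0.69, counting error only). Each day is 1 library per shRNA, so it has no test over replicates, and the overlap of FADS1 with FADS2 on the other strand applies to both values.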

How the results depend on the processing

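SCD was lower in shAPC under every alternative run, on both days. Its log2 ratio of -1.36 at day 3 became -1.74 with TMM factors and -1.72 with DESeq2 size factors. These factors move the median of all genes from 0.28 to -0.13 and -0.11. In cells of 2000 to 10000 UMIs the day 3 ratio was -1.50, from 4 UMIs of SCD in shAPC and 15 in shScr. At day 7, -1.45 became -1.27 as a mean over cells and -2.77 in cells of 2000 to 10000 UMIs, where shAPC had 3 UMIs of SCD.

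The count of 4 lower genes at day 3, SCD included, became 3 without FASN under TMM or DESeq2 factors, a mitochondrial limit of 10%, all barcodes, cells of at least 2000 genes or 10000 UMIs and barcodes found in 1 library, 3 without FADS2 as a mean over cells, and 5 with ACSL3 in G1 cells. It became 2 without the 5% deepest cells or with a pseudocount of 5 CPM, 1 with no minimum, with a fold of 2, without centring or without ATF3 cells, and 0 with a minimum of 100 CPM, which SCD does not reach. The count of 1 at day 7 became 2, with ACSL3 added, with totals without mitochondrial and ribosomal protein genes, a mitochondrial limit of 10%, all barcodes, the mean over cells, without the 5% deepest cells, in G1 cells, with no minimum or a minimum of 5 CPM, and without centring, and 0 with a minimum of 100 CPM. For both days, 1 became 2 in G1 cells and 0 with 100 CPM. The SCD shares at 2000 UMIs rose to 35.0%, 16.3%, 27.4% and 13.8% at 10000. In deep cells the day 7 SCD ratio was -1.09 at 10000 UMIs and -1.40 at 20000. The alternatives on 2000 to 10000 UMIs, ATF3 cells, shared barcodes and 5 CPM were chosen after seeing the data. The cause of these shifts was not tested. No paired analysis was possible because each group holds 1 library.

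Genes under 20 CPM rest on 188 to 545 UMIs a library, and the counting intervals of both ratios of ACACA and of the day 7 ratios of ELOVL6 and SREBF1 included 0.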

Other observations

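The barcodes left out for 5% or more mitochondrial UMIs, 355 in shScr day 3, 259 in shAPC day 3, 1052 in shScr day 7 and 1557 in shAPC day 7, were also summed. SCD had 72.4, 23.2, 63.4 and 22.2 CPM in them in that order, above the kept cells of each library. This was not particular to SCD. The other genes were above their kept cells too, except ACACA in shScr day 3 and ELOVL6 in shScr day 7. The log2 ratios of shAPC to shScr for SCD were -1.64 at day 3 (-1.95 to -1.35) and -1.52 at day 7 (-1.67 to -1.36). ACSL3 stood at -0.49 (-0.76 to -0.23) and -0.70 (-0.87 to -0.54) there, FASN at -0.29 and -0.34, and ACLY at 0.05 and -0.03. ELOVL5 in these barcodes had ratios of -0.27 (-0.52 to -0.02) and -0.32 (-0.45 to -0.19), nearer to each other at the 2 days than in the kept cells.

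FABP4, a fatty acid binding protein on the adipocyte marker list, had 43 UMIs in shScr day 3, 2 in shAPC day 3, 32 in shScr day 7 and 3 in shAPC day 7. It was named after its values were seen. Its level in shScr was low, at about 1 CPM, and its counts in shAPC lie at or under the detection floor of 3 UMIs. SCD5, the other human stearoyl-CoA desaturase, had 12.4, 10.2, 12.5 and 13.2 CPM in that order, with log2 ratios of -0.29 (-0.49 to -0.09) at day 3 and 0.08 (-0.13 to 0.29) at day 7. It too was named after its values were seen.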
